A study of Salmo salar with 6 samples.

Results

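The Atlantic salmon genome carries a pair of galectin-3 genes under the symbols lgals3a and lgals3b, and their transcripts were followed here in the head kidney (HK) of fish fed an olive fruit extract. The members are the non-control array probes whose RefSeq accession, without its version, belongs to one of these symbols in RefSeq's gene table (assembly Ssal_v3.1), which gave 2 of 42386 probes, 1 for each copy. The tested fish received the AQUOLIVE diet, with 0.15% of the extract, and their counterparts the control diet, the same feed without it, for 133 days. All were unvaccinated juvenile smolts in seawater when sampled, and the feeding had begun before the transfer to seawater, while they were parr. Their labels give a weight of 252 g for both diets. The paper reports that mean for the control fish and a lower one for the AQUOLIVE fish, without a significant difference. Each diet is represented by 3 pools that joined the HK RNA of 6 fish each, so the spread between individual fish is not known. Each pool was hybridized to its own one-color Agilent array. The copies were chosen by measured values: an earlier look at these same arrays had shown the log2 difference between the diets to be above 0 for lgals3a and below 0 for lgals3b. The diet differences of both copies, and the difference between them, are therefore descriptions without a test.

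Galectins are soluble lectins that bind beta-galactosides, the galactose-bearing ends of glycans on cell surface and secreted proteins. In mammals galectin-3 is the member with a long proline- and glycine-rich tail in front of its carbohydrate-binding domain, it is abundant in macrophages, and it gathers on lysosomes whose membrane has been torn. Teleost fish often keep a pair of copies of a gene that mammals have once. In teleosts the HK produces blood and immune cells and holds erythroid, myeloid and lymphoid cells beside the steroid-producing interrenal cells.

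The gene table lists lgals3a (GeneID 106591812) with 1 transcript and lgals3b (GeneID 106602243) with 4 transcripts, and the copies lie on different chromosomes. The lgals3b probe is named for 1 of its 4 transcripts, so the other 3 may be missed or included. Whether a probe also captures the other copy was not analysed here, because the files used give no probe sequences. The protein-coding genes directly beside lgals3b are dact1 on one side and fbxo34 on the other, with atg14 next after fbxo34. FBXO34 and the autophagy factor ATG14 also lie near LGALS3 in human. The 10 protein-coding genes nearest to lgals3a carry locus numbers only.

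Both copies gave a clear signal in every pool. Processed signal is the spot brightness after background subtraction and correction of spatial trends. The lgals3a probe read 1560, 1609 and 1621 in AQUOLIVE pools 1, 2 and 3, against 918, 975 and 291 in control pools 1, 2 and 3. All 3 AQUOLIVE values lay above all 3 control values, with control pool 3 far below the rest. The lgals3b probe read 1704, 1469 and 1312 in AQUOLIVE pools 1, 2 and 3, against 1524, 1185 and 754 in control pools 1, 2 and 3. Here the diets overlapped, since control pool 1 was brighter than AQUOLIVE pools 2 and 3. The brightness of different probes depends on the probe as well as on the transcript, so no level of one copy is set against that of the other. Feature Extraction's own error was between 10.0% and 10.6% of the signal for 11 of these 12 spots and 7.61% for the spot of lgals3b in control pool 3. That last spot carried the flag for a non-uniform feature. Its median pixel signal was 487 and its background-subtracted signal 401, against a processed signal of 754, so the versions of its value differ more than those of any other lgals3b spot. The unflagged lgals3a spot of the same array showed a similar gap, with a processed signal of 291 and a background-subtracted signal of 142. The flagged lgals3b spot was set to missing in the normalized values below, which leaves 3 AQUOLIVE and 2 control values for lgals3b.

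**Figure D1:**
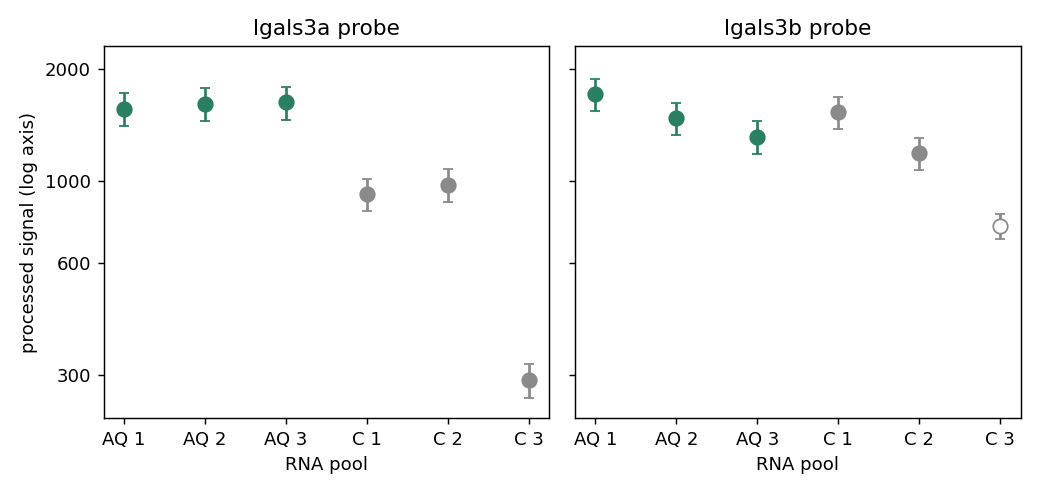
Processed signal of the lgals3a and lgals3b probes (log axis) in the 3 AQUOLIVE (AQ, green) and 3 control (C, gray) pools, each point 1 spot with Feature Extraction's error; the open point is the flagged spot. The lgals3a signals of the AQUOLIVE pools sit between 1560 and 1621, above every control pool, whereas the lgals3b signals of the diets overlap.

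The arrays also differed in brightness over all their spots. The median processed signal of an array was between 69.3 and 108 in the AQUOLIVE pools and between 16.7 and 79.6 in the control pools, and the share of spots well above background was between 54.2% and 76.0% in the AQUOLIVE pools and between 42.5% and 61.0% in the control pools. Control pool 3 was the lowest on both counts. The control arrays were scanned first and have neighboring slide numbers, as the AQUOLIVE arrays have among themselves, so that the diet cannot be told apart from the slide run or the order of scanning. Among non-control spots of the same array, a measure that ignores overall brightness, the lgals3a spot ranked at the percentiles 85.7, 86.0 and 86.9 in AQUOLIVE pools 1, 2 and 3, against 83.6, 83.8 and 82.0 in control pools 1, 2 and 3. By rank the AQUOLIVE pools lay above the control pools without overlap, by a few percentiles. The ranks come from the same processed signals by which the copies were chosen, so they are no separate evidence. The share of all probes without overlap by rank was not computed. The lgals3b spot ranked at 86.5, 85.1 and 84.9 in AQUOLIVE pools 1, 2 and 3, against 88.4, 85.9 and 89.9 in control pools 1, 2 and 3, the last being the flagged spot. By this measure AQUOLIVE pools 2 and 3 lay below every control pool, and AQUOLIVE pool 1 lay above control pool 2.

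After loess normalization, which removes brightness-dependent differences between arrays, lgals3a had the higher mean with the AQUOLIVE diet. Its normalized log2 signal was 9.69, 9.75 and 9.87 in AQUOLIVE pools 1, 2 and 3, against 9.37, 9.47 and 9.09 in control pools 1, 2 and 3. The means were 9.77 ± 0.09 (SD, n = 3) in the AQUOLIVE pools and 9.31 ± 0.20 (SD, n = 3) in the control pools, a log2 FC of 0.46, or 1.38-fold. The lowest AQUOLIVE pool stood above the highest control pool. Over all probes with 6 values, 14.7% were without overlap and higher with the AQUOLIVE diet, and 29.7% were without overlap in either direction. The size of the lgals3a difference was also ordinary on these arrays, since the median absolute log2 FC over the 25826 probes tested was 0.44.

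The lgals3b copy differed less and in the opposite direction. Its normalized log2 signal was 9.86, 9.63 and 9.58 in AQUOLIVE pools 1, 2 and 3, against 10.11 and 9.80 in control pools 1 and 2. The means were 9.69 ± 0.15 (SD, n = 3) in the AQUOLIVE pools and 9.96 ± 0.22 (SD, n = 2) in the control pools, a log2 FC of -0.27, or 0.83-fold. The diets overlapped, because AQUOLIVE pool 1 lay above control pool 2. The value rests on few control spots: it was -0.09 without control pool 1 and -0.43 without control pool 2, each time with 1 control value left. With flagged spots kept, control pool 3 gave the highest lgals3b value of all pools, 10.35, and the log2 FC was -0.40, with 3 values per diet and the same overlap.

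**Figure D2:**
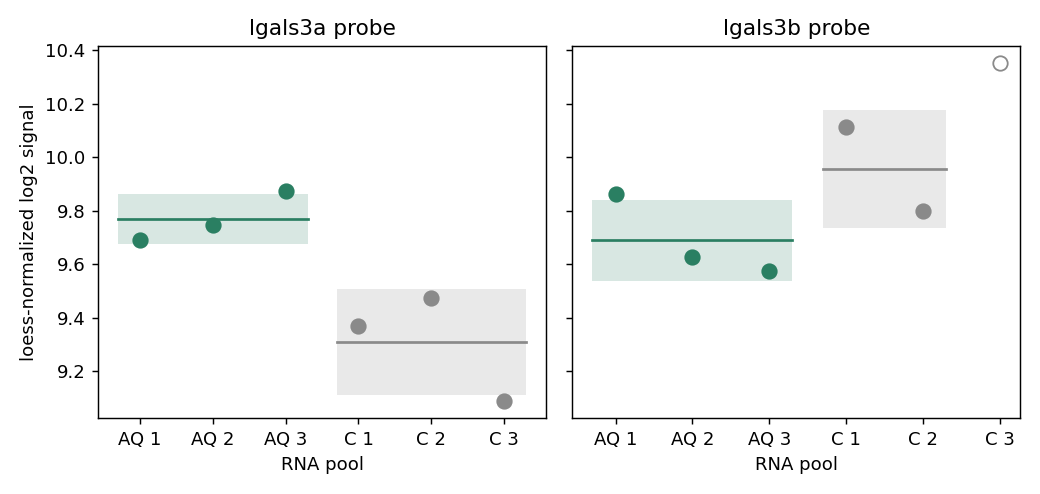
Loess-normalized log2 signal of both probes by pool (AQ, AQUOLIVE, green; C, control, gray), with the mean (line) and 1 SD (band) per diet; the open point is the flagged spot, drawn from the values with flagged spots kept and left out of the mean. The AQUOLIVE pools of lgals3a lie above all control pools (log2 FC 0.46), and those of lgals3b reach into the control range (log2 FC -0.27).

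The copies can also be set against each other within arrays, where the ratio of the lgals3a probe to the lgals3b probe does not depend on the overall brightness of an array. Since the copies were chosen for diet differences of opposite sign, this ratio restates that choice and is no separate evidence. From the processed signals this log2 ratio was -0.13, 0.13 and 0.31 in AQUOLIVE pools 1, 2 and 3, against -0.73, -0.28 and -1.38 in control pools 1, 2 and 3, the last with the flagged spot. Every AQUOLIVE pool had a higher ratio than every control pool, and the sign of a single ratio has no meaning because the probes differ in brightness. The means were 0.10 ± 0.22 (SD, n = 3) in the AQUOLIVE pools and -0.80 ± 0.55 (SD, n = 3) in the control pools, a difference of 0.90 on the log2 scale. Without control pool 3, whose flagged spot gave the lowest ratio, the difference was 0.61, or 1.52-fold. In the normalized values, with that spot missing, the ratio averaged 0.08 ± 0.24 (SD, n = 3) in the AQUOLIVE pools and -0.53 ± 0.29 (SD, n = 2) in the control pools, a difference of 0.62. The gap between the nearest pools of the diets was small beside these spreads: AQUOLIVE pool 1 stood at -0.13 and control pool 2 at -0.28. The background-subtracted signals gave 0.11, -0.14 and 0.64 in AQUOLIVE pools 1, 2 and 3, against -0.55, -0.30 and -1.50 in control pools 1, 2 and 3, again without overlap but with another order among the AQUOLIVE pools.

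**Figure D3:**
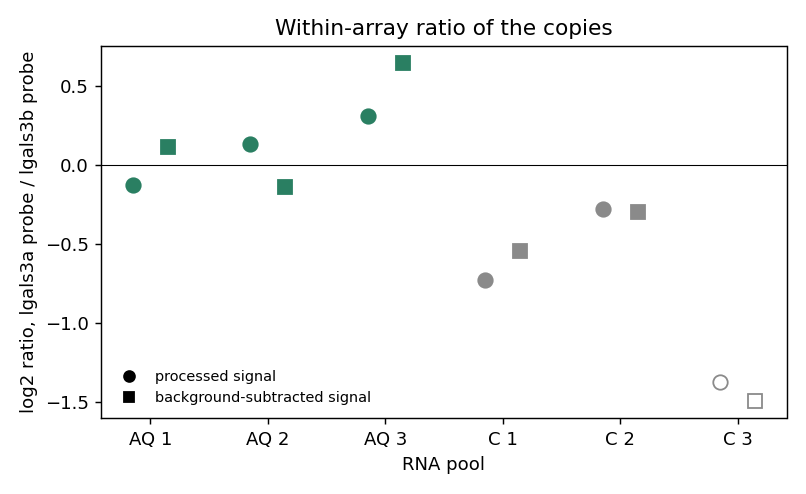
Log2 ratio of the lgals3a to the lgals3b probe within each array, from processed signals (circles) and background-subtracted signals (squares), for AQUOLIVE (AQ, green) and control (C, gray) pools; open symbols rest on the flagged lgals3b spot. The AQUOLIVE pools reach from -0.13 to 0.31 in the processed signals and the control pools from -1.38 to -0.28.

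The lgals3a difference was above 0 in all 16 alternatives to these settings, among them each pool left out, from 0.34 to 1.61, and that of lgals3b was below 0 in 15 of 16, from -0.52 to 0.048. The copies were chosen for these signs on the same arrays, so the counts are no separate evidence of direction. For lgals3a, leaving out a pool could hardly turn the sign, since its diets do not overlap. The exception for lgals3b, and the largest value for lgals3a, came from the log2 values as deposited. These carry no scaling between arrays, and their median probe was itself 0.98 higher in the AQUOLIVE pools. The lgals3b value there lacks control pool 3, the dimmest array, while the lgals3a value and the median include it, so they do not rest on the same pools.

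**Figure D4:**
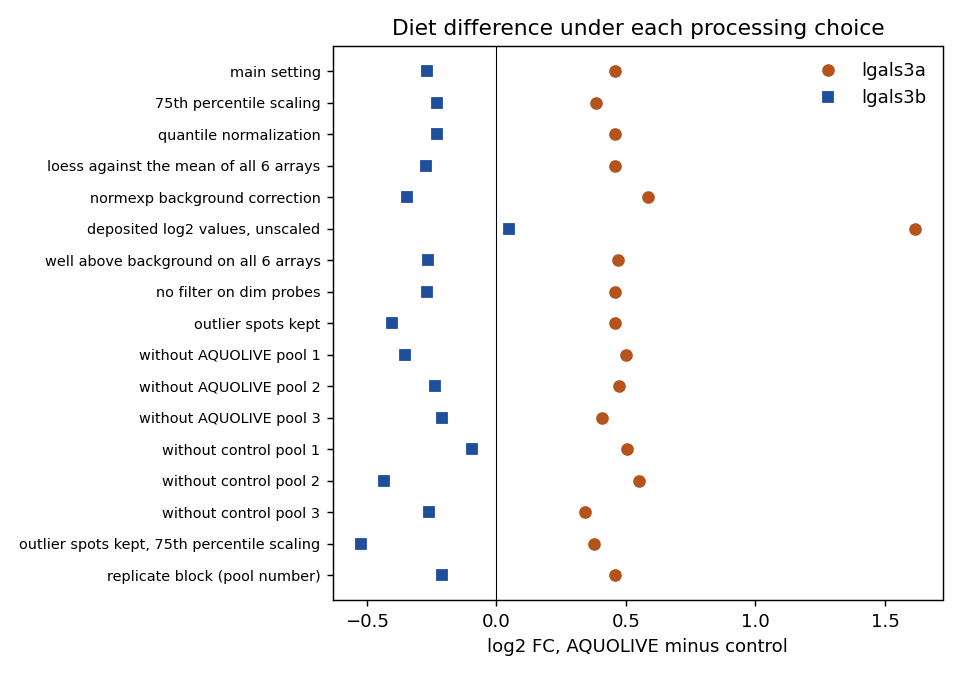
Log2 FC (AQUOLIVE minus control) of lgals3a (circles) and lgals3b (squares) in the main setting and in 16 alternatives, among them each pool left out. The lgals3a values lie between 0.34 and 1.61, and the lgals3b values between -0.52 and 0.048.

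Of the other galectins only the galectin-8 copies had probes with a symbol; galectin-8 is a lectin with a pair of carbohydrate-binding domains in 1 chain. The normalized log2 signal of lgals8a was 10.92, 10.88 and 11.04 in AQUOLIVE pools 1, 2 and 3, against 10.75 and 10.95 in control pools 1 and 2, with the spot of control pool 3 flagged here as well. The diets overlapped, and limma gave a log2 FC of 0.10 with a standard error of 0.24 and an adjusted p of 0.832. The lgals8b probe was well above background on 1 of 3 AQUOLIVE arrays and 0 of 3 control arrays, so it was not tested. Galectins that the table lists under locus numbers were not analysed here.

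Genes that make galectin ligands, bind galectin-3 or act on damaged lysosomes showed no call after adjustment. Together with the galectin-8 copies they had 43 probes, of which 31 passed the filter on dim probes. Limma with Benjamini-Hochberg adjustment called 0 of these 31 (smallest adjusted p = 0.177), against 0.0155% of all 25826 probes, 4 probes in all. At an unadjusted p under 0.05 limma called 5 of the 31, 16.1%, close to the 18.1% of all probes. Without adjustment, 4 of the 31 passed the methods' t-test at 0.05, against 15.8% of all probes (8.1% upward and 7.66% downward in AQUOLIVE pools), and 0 passed after Benjamini-Hochberg adjustment. The diets did not overlap for 11 of the 30 probes with 6 values, 36.7%, against 29.7% of all probes.

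The ligand-making genes add or carry the sugars of branched N-glycans and galactosides. Of 33 such genes on the list 13 had a probe, and 8 of their 14 probes were tested. The median log2 FC of these 8 was 0.29, with 6 above 0, against a median of -0.02 over all probes. The largest difference was that of slc35a2, the Golgi transporter of UDP-galactose, with 7.58, 7.68 and 7.66 in AQUOLIVE pools 1, 2 and 3, against 7.06, 6.40 and 6.89 in control pools 1, 2 and 3. All AQUOLIVE pools of slc35a2 lay above all control pools, and the log2 FC was 0.85, with a standard error of 0.24 and a limma adjusted p of 0.177. The log2 FC was 0.81 for mgat1, the enzyme that opens the way to complex N-glycans, 0.77 for slc35a3a, a copy of the Golgi transporter of UDP-N-acetylglucosamine, and -0.57 for c1galt1c1, the chaperone of the enzyme that adds galactose to O-glycans (adjusted p between 0.258 and 0.421 from limma). The mgat1 value leans on control pool 3: its signal was 7.86, 8.04 and 8.18 in AQUOLIVE pools 1, 2 and 3, against 7.85, 7.80 and 6.01 in control pools 1, 2 and 3. Its probe was well above background on 2 of 3 control arrays. The probe of mgat1b stood at 0.48 with overlap (adjusted p = 0.413 from limma). Control pool 3 was also the lowest control pool for slc35a3a, with 8.43, 8.33 and 7.56 in control pools 1, 2 and 3. The same held for mgat1b, with 10.21, 10.08 and 9.27. For c1galt1c1 it was the highest, with 8.04, 7.88 and 8.64, and for slc35a2 it lay between the others. The median of the list without control pool 3 was not computed.

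Of 42 symbols listed for proteins that bind or work with galectin-3 in mammals, 16 had a probe. The list holds slc3a2 also as cd98 and ptprc also as cd45. Of the 17 probes 15 were tested, with a median log2 FC of 0.19 and 9 above 0. The lysosomal membrane glycoproteins, classical galectin-3 ligands, differed little: the log2 FC was 0.20 for lamp1 and 0.13 and 0.29 for the probes of lamp2 (adjusted p between 0.530 and 0.789 from limma). The lamp1 value leans on control pool 3. Its signal was 12.92, 13.01 and 12.94 in AQUOLIVE pools 1, 2 and 3, against 13.14, 13.20 and 11.91 in control pools 1, 2 and 3. Every AQUOLIVE pool of lamp1 thus lay below control pools 1 and 2. The log2 FC was -0.97 for kdr, a vascular endothelial growth factor receptor, 0.91 for ctnnb1, which encodes beta-catenin, and 0.90 for chmp4c, an ESCRT-III subunit (adjusted p between 0.218 and 0.342 from limma). The diets overlapped for chmp4c, whose probe was well above background on 2 of 3 control arrays. For ctnnb1 control pool 3 was far below the rest. Its signal was 12.89, 13.03 and 13.25 in AQUOLIVE pools 1, 2 and 3, against 12.76, 12.58 and 11.09 in control pools 1, 2 and 3. The largest difference, that of the ESCRT-I subunit tsg101a, came with a large spread: its signal was 5.77, 8.71 and 2.89 in AQUOLIVE pools 1, 2 and 3, against 8.47, 7.50 and 9.33 in control pools 1, 2 and 3. The diets overlapped for tsg101a, and its log2 FC of -2.64 had a standard error of 1.42 (adjusted p = 0.356 from limma).

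The lysosome damage list shares tsg101a, chmp4c, chmp4ba and the lamp genes with the previous one. It had probes for 15 of 32 genes, and 13 of 16 probes were tested, with a median log2 FC of -0.25 and 7 below 0. Beside tsg101a and chmp4c the largest values were -1.05 for gabarapa and -0.98 for ulk1a (adjusted p = 0.295 and 0.407 from limma), which code for an Atg8-type protein and a kinase of autophagy. The diets overlapped for gabarapa and for ulk1a. Of the Atg8-type genes tested beside gabarapa, map1lc3a stood at -0.52 without overlap between the diets and map1lc3b at -0.25 with overlap (adjusted p = 0.281 and 0.653 from limma). The autophagy receptor sqstm1 stood at -0.53 without overlap (adjusted p = 0.357 from limma). Among the probes above 0 were becn1, at 0.28 with overlap, and chmp4ba, at 0.25 without overlap (adjusted p = 0.727 and 0.483 from limma).

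**Figure D5:**
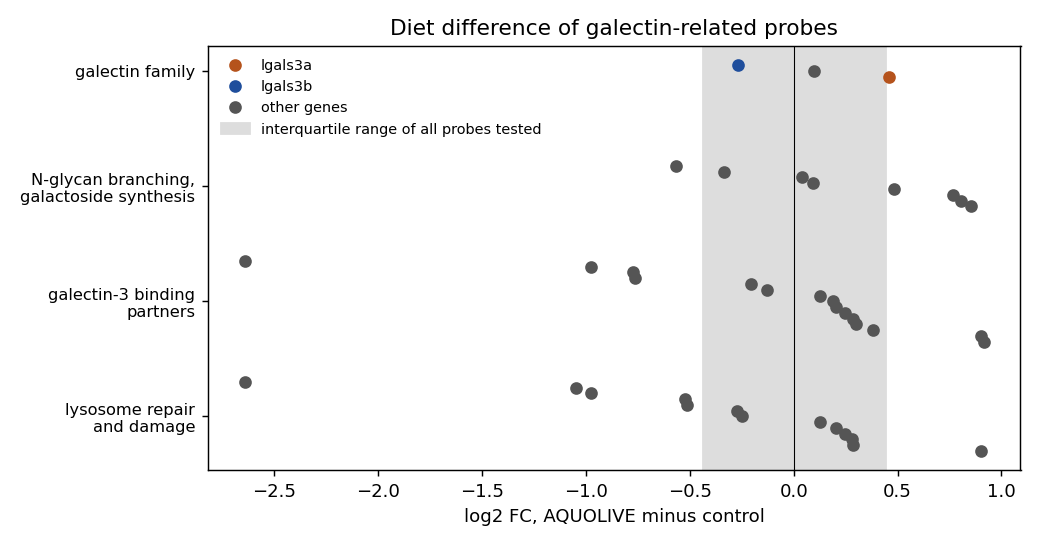
Log2 FC (AQUOLIVE minus control) of every tested probe of 4 gene lists, with lgals3a and lgals3b in color and the interquartile range of all probes tested (-0.44 to 0.44) shaded; genes on several lists appear in each. The lgals3a point lies just outside this range at 0.46 and the lgals3b point within it at -0.27.

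Markers of macrophages, in which galectin-3 is abundant in mammals, of other HK cell types and of kidney tubule were looked at beside the copies. Of 17 monocyte and macrophage markers 2 had a probe. The level of c1qa, a complement component made by macrophages, was 13.32 ± 0.05 (SD, n = 3) in the AQUOLIVE pools and 13.35 ± 0.07 (SD, n = 3) in the control pools. The lysosomal glycoprotein cd68 was lower in all AQUOLIVE pools than in any control pool, with 13.71, 13.81 and 13.91 in AQUOLIVE pools 1, 2 and 3, against 14.55, 14.26 and 15.17 in control pools 1, 2 and 3 (log2 FC -0.85, adjusted p = 0.216 from limma). The summed normalized signal of both markers ranged from 23198 to 25716 in the AQUOLIVE pools and from 30560 to 47209 in the control pools. The summed signal of 7 neutrophil markers, of 10 with a probe and 18 on the list, overlapped between the diets, with 108038 to 151713 in the AQUOLIVE pools and 131549 to 154512 in the control pools. This sum leaves out mpx and cyba, which lack spots: their log2 FC was -0.90 and -0.38 (adjusted p = 0.173 and 0.489 from limma), and every measured AQUOLIVE pool lay below every measured control pool. Summed signals, in each list taken over the markers with 6 values, were also lower without overlap for 5 B-cell markers, with 13627 to 15424 in the AQUOLIVE pools and 16177 to 20953 in the control pools, and for 3 thrombocyte markers, with 12026 to 12325 in the AQUOLIVE pools and 15126 to 17654 in the control pools. The B-cell sum rests on xbp1, a transcription factor of plasma cells (log2 FC -0.69, adjusted p = 0.260 from limma), since the diets overlapped for each of blk, blnk, cd37 and cd79b. Of the thrombocyte markers fli1 and itga2b were without overlap and gp9 overlapped. Over all probes with 6 values, 15% were lower without overlap and 29.7% were without overlap in either direction. Single markers without overlap are therefore common on these arrays, and no such share was computed for sums. Summed signals of the erythroid, T and NK cell, interrenal and kidney tubule markers overlapped between the diets. Single markers within these lists did not. Both T-cell cd8a probes (log2 FC 1.66 and 0.67) and the interrenal fdxr (0.69) were higher in all AQUOLIVE pools. The chromaffin gene th (-1.34) and the tubule gene cdh16 (-1.74) were lower in all of them. Limma gave these probes adjusted p between 0.174 and 0.324. The th probe was dim, well above background on 2 of 3 AQUOLIVE and 2 of 3 control arrays. The cd8a probe at 1.66 was well above background on 2 of 3 control arrays. The other markers of these lists with 6 values overlapped. The erythroid sum omits hba, the brightest marker of that list, which has no value in AQUOLIVE pool 2. This marker stood at 16.48 and 16.63 in AQUOLIVE pools 1 and 3, above the 15.79, 15.62 and 15.58 of control pools 1, 2 and 3 (limma: log2 FC 0.90, adjusted p = 0.177). The interrenal sum omits star and hsd3b1, for which the measured pools of the diets overlapped. Limma called 0 markers of any of these lists after adjustment, and between 0 and 2 per list without it. In pooled tissue RNA, fewer cells of a type and less RNA per cell cannot be told apart, and the part of cell composition in the galectin-3 values was not tested. Some genes of HK cell types were clearly present: the interrenal genes star and hsd3b1, the neutrophil gene mpx, the erythroid gene alas2 and the B-cell gene cd79b were well above background on all 6 arrays. The tubule gene cdh16, which marks kidney epithelium, was so as well (log2 FC -1.74, adjusted p = 0.174 from limma). Other genes of these lists were not. The interrenal gene cyp17a1, the neutrophil gene cxcr2 and the tubule genes lrp2a and lrp2b were well above background on 0 of 3 arrays of either diet.

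Few of the genes beside the copies could be measured. Around lgals3b, 6 of the 10 nearest protein-coding genes were tested (adjusted p between 0.414 and 0.978 from limma). Their log2 FC ranged from -0.36 for timm9, a mitochondrial import chaperone, to 0.42 for irf2bpl, a transcription regulator. It was -0.01 for the adjoining fbxo34 and 0.25 for atg14 next to it. The irf2bpl probe was dim, well above background on 2 of 3 AQUOLIVE and 1 of 3 control arrays. Around lgals3a 2 of 10 were tested, with log2 FC of 1.08 and -0.43 (adjusted p = 0.414 and 0.410 from limma). The probe at 1.08 was dim as well, above background by that measure on 3 of 3 AQUOLIVE and 1 of 3 control arrays.

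The genes with a symbol whose normalized log2 signal was most like that of lgals3a over the 6 arrays were z3h7a, fanci, slc6a19, dnja1 and rad23b, with Pearson r from 0.990 to 0.996. They include a subunit of the Fanconi anemia DNA repair complex (fanci), a neutral amino acid transporter (slc6a19), a DnaJ co-chaperone (dnja1) and a nucleotide excision repair factor (rad23b). For lgals3b, over the 5 arrays with a value, they were ift88, k1143, bri3bp, yjefn3 and mif, with r from 0.989 to 0.996. Among these ift88 serves transport in cilia and mif codes for the macrophage migration inhibitory factor. So few arrays, which share the diet split, make high values common: r was above 0.9 for 392 of 5792 candidates for lgals3a and for 115 of 5853 for lgals3b. With flagged spots kept, 4 of the 5 genes nearest to lgals3a and 1 of the 5 nearest to lgals3b stayed the same.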

How the data were processed

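The authors scanned 6 one-color arrays, 1 per RNA pool, and deposited Feature Extraction 10.7.3.1 intensities for each spot (version per the file headers); the log2 values deposited for the series are the plain log2 of that file's background-subtracted signals (tolerance 1e-06), with medians of 7.32, 6.55 and 7.07 in AQUOLIVE pools 1 to 3 and 6.31, 7.02 and 5.18 in control pools 1 to 3. According to the methods, poor spots were filtered, log2 ratios were Lowess-normalized and an unpaired test was run. Here processed signals were log2-transformed (R 4.3.3), with control spots removed, flagged outlier spots set to missing, probes kept if well above background on at least 3 of 6 arrays, and robust loess was applied to the log2 ratio of every array over the control mean (span 0.3, 4 iterations). Limma 3.58.1 compared the diets (two-sided moderated test, Benjamini-Hochberg over 25826 probes, threshold 0.05) and the methods' t-test (equal variance). Fold changes are AQUOLIVE over control. The number of arrays limits the precision, and p-values measure the spread between pools. According to the paper, each pool took 1 fish from every tank of its diet. The pools of a diet thus share their tanks, and the p-values do not measure the spread between tanks.

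Of 42386 probes 40932 have a RefSeq accession, 25641 were found in the gene table and 8155 have a symbol. The named genes are both copies, all galectins with a symbol, up to 4 genes per list with the largest absolute log2 FC, and the 5 genes most correlated with each copy. The genes lamp1, lamp2, mgat1b, map1lc3a, map1lc3b, sqstm1, becn1, chmp4ba, the marker genes and the genes beside the copies were named after their values were seen. List genes were matched by symbol with a copy suffix, and lrp11, prdm11, aqp12 and tha1, other genes with similar symbols, were removed. The members and lists were chosen with earlier results of these data known. The arrays hold median and not mean spot signals, so normexp (offset 50) used the median. Alternatives were the 75th percentile, quantile or all-array loess scaling, normexp, the deposited log2 values, other filters, flagged spots kept, each pool left out and the pool number as a block. The pool numbers do not pair the diets: tanks and fish differ. Deviations from the diet means correlated at 0.21, -0.06 and 0.03 between pools of the same number.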

Additional observations from a re-analysis of the deposited data

How the results depend on the processing

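Of 16 alternatives, 15 left the log2 FC of lgals3a within 1 SD between pools of its value, as did 14 for lgals3b and 15 for the difference between the copies (lgals3a minus lgals3b, 0.73). This 0.73 uses 3 control values for lgals3a and 2 for lgals3b; over the 5 arrays with both it was 0.62. In the deposited log2 values, unscaled by construction, these were 1.61, 0.048 and 1.57, so that only lgals3b turned its direction. There the dim control pool 3 enters lgals3a alone; with its flagged lgals3b spot kept, the same signals gave a difference of 0.99 between the copies. With flagged spots kept and 75th percentile scaling, chosen after seeing the data, lgals3b was at -0.52. With a pool left out lgals3a ranged from 0.34 to 0.55, lgals3b from -0.43 to -0.09 and their difference from 0.60 to 0.98. With the pool number as a block they were 0.46, -0.21 and 0.67. Limma called 0 probes of the galectin, ligand-synthesis, partner and lysosome lists under every alternative run (the cell marker lists were not rerun); the methods' t-test without adjustment called 1 ligand-synthesis, 2 partner and 2 lysosome probes. The 4 calls over all probes became 29 with 75th percentile scaling, 33 with flagged spots kept besides, 2 with quantile normalization, 7 with normexp, 0 in the deposited values, 30 with the filter on all 6 arrays, 1 with no filter, 0 with the pool block, and 4068 and 0 by the methods' t-test before and after adjustment. They were 0 to 61 with a pool left out, 61 without AQUOLIVE pool 2 and 0 without any other; the cause was not tested. Dim probes limit what can be seen: lgals8b could not be tested.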
